A study of Mus musculus with 36 samples.

Results

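Wild-type (WT) mouse embryonic stem cells were examined 1 h after a 30 min period on a panel of blue LEDs. The samples were chosen by their labels: 3 lit and 3 dark libraries of WT cells at 1 h, 6 of the 36 libraries in the series. Cells grew without serum, with a MEK inhibitor, a GSK3β inhibitor and LIF (leukaemia inhibitory factor), a cytokine that keeps mouse embryonic stem cells undifferentiated through the receptor subunit gp130 and the transcription factor STAT3. Doxycycline (2 µg/ml) had been applied for 2 days to lit and dark cultures alike. The groups set beside these were WT cells at 0 h and at 4 h and, at 1 h, cells transfected with LiTEC (the light-targeting construct of the study), each with 3 lit and 3 dark libraries and the same doxycycline. Replicate 1 of each group was in batch 1, and replicates 2 and 3 were in batch 2. Whether replicates came from separate cultures, and how dark plates were handled during the light period, is not in the labels. The p-values thus measure only spread within groups, shared over all 36 libraries of the fit, and that spread may be technical.

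RNA was measured by stranded poly(A) mRNA sequencing, and the 6 libraries held between 14887525 and 20221771 counts. Levels are given as CPM, counts per 1e6 counts of the scaled library size, and each value is a mean ± SD of 3 libraries unless replicates are listed. In the 6 libraries the ribosomal RNA locus Gm26917 took 8.522% to 12.15% of the counts, with the highest share in lit replicate 1 and the lowest in dark replicate 1. All 8 embryonic stem cell markers were measured, and their summed level was 2810 to 3620 CPM in lit and 2680 to 3800 CPM in dark libraries. Of 12 fibroblast and feeder markers 2, S100a4 and Lum, were at 0 and 8 had a mean under 1 CPM. Their sum was 390 to 492 CPM in lit and 397 to 472 CPM in dark libraries, most of it Vim. Summed markers of primitive endoderm were 277 to 303 CPM in lit and 279 to 305 CPM in dark libraries, and those of mesendoderm 8.75 to 21.2 and 9.88 to 23.7 CPM. Neuroectoderm markers summed to 102 to 128 CPM in lit and 100 to 115 CPM in dark libraries, trophectoderm markers to 98 to 117 and 74.4 to 108 CPM, and markers of 2-cell-like cells to 0.339 to 3.59 and 0.661 to 4.25 CPM. Most of the primitive endoderm sum was Sparc and Lama1, most of the neuroectoderm sum Tubb3 and Nes, and most of the trophectoderm sum Tfap2c (82.7 CPM in lit and 64.4 CPM in dark cells). A mean under 1 CPM was found for 4 of 10 primitive endoderm, 5 of 8 mesendoderm, 4 of 8 neuroectoderm and 4 of 8 trophectoderm markers. No marker of any of these types was called.

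Cells meet misfolded protein by releasing the transcription factor HSF1, which binds repeats of GAA and TTC near heat shock genes and drives chaperones such as Hsp70. Cytokine signalling through STAT3 induces Socs3, whose protein then blocks the receptor's kinase, so that the mRNA is a short-lived feedback signal. The unfolded protein response of the endoplasmic reticulum acts through XBP1, ATF6 and ATF4, the zinc sensor MTF1 acts on zinc exporters and metallothioneins, and Nodal signalling in early embryonic cells induces its own inhibitors, among them Lefty1 and Smad7.

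Bases before the annotated transcript start are shown for 5 genes that were higher in lit cells, belong to these responses and hold the letters named for each, taken from RefSeq (GRCm38.p6) and read 5′ to 3′ on the gene's strand. RefSeq promoter windows, from 250 bases before to 50 after the start, were found for 35 of the 52 genes called at 1 h, in 39 windows. Capitals mark matches to the motif named for each gene. The first 2, from the near-identical Hsp70 genes Hspa1a (chr17:34972157-34972406, minus strand) and Hspa1b (chr17:34959239-34959488, minus strand), were equal at 247 of 250 positions, and both hold GAAGATTC starting 104 bases before the transcript. The Socs3 window (chr11:117969367-117969616, minus strand) holds the STAT-type match TTCTTAGAA starting 154 bases before the RefSeq start. The gene positions used below (GENCODE M21) place Socs3 at 117966079 to 117970047, so this window lies inside the gene there. In Slc30a1, a zinc exporter gene (chr1:191906531-191906780, plus strand), a metal response element core on the reverse strand, GAGTGCA, starts 43 bases before the start, and a second, GAGCGCA, starts at base 31 after it. In Herpud1, a gene of protein degradation at the endoplasmic reticulum (chr8:94386179-94386428, plus strand), ATTGGGCCACG starts 52 bases before the start.
Hspa1a: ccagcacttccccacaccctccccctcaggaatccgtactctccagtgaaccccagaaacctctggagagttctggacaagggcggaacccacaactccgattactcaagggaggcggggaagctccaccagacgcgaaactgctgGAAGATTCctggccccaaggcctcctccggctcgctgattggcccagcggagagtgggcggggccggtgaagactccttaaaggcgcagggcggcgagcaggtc
Hspa1b: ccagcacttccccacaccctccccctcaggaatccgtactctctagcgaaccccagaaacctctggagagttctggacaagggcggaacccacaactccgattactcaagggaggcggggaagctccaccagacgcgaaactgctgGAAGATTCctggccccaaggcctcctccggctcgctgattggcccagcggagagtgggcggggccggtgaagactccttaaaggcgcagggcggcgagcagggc
Socs3: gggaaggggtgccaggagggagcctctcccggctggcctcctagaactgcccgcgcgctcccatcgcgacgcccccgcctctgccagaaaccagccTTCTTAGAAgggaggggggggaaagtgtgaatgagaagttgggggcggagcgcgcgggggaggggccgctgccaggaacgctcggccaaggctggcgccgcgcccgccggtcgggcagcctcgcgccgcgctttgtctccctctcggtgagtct
Slc30a1: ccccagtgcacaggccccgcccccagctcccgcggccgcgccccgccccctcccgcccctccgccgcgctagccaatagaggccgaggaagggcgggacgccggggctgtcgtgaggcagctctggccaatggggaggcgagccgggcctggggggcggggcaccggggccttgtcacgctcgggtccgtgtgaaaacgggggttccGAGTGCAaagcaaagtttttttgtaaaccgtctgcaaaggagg
Herpud1: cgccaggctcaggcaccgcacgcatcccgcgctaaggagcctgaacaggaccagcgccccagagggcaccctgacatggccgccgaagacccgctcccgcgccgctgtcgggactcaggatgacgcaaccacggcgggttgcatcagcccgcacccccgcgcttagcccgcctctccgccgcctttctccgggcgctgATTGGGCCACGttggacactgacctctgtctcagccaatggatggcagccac

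All motifs were searched on both strands of the 300-base windows, and matches are a description of letters. The full heat shock element, 3 alternating GAA and TTC units with 2 bases between neighbours, was found in 0.603% of 32851 RefSeq promoters and in none of the 39 windows. Its paired units (GAANNTTC or TTCNNGAA, added after that search) were found in 15.1% of all promoters and in 5 of 27 windows of genes that were higher. STAT-type letters (TTCNNNGAA, or TTC and GAA with 4 bases between them) stood in 14.6% of all promoters, in 3 of 27 windows of higher genes and in 4 of 12 windows of lower genes. The metal response core (TGCACNC or TGCGCNC) was common, in 25.7% of all promoters, in 35.7% of those of tested genes, in 14 of 27 windows of higher and in 5 of 12 windows of lower genes. The ER stress element, CCAAT and CCACG with 9 bases between them, in 0.119% of all promoters, was in none of the 39, and its shorter second form, ATTGG and CCACG with 1 base between them, also added later, was in 12 of 32851 promoters (0.0365%), Herpud1 among them. Other higher genes of the same responses had no such match: neither of the 2 windows of Dnajb1 holds the paired heat shock units, the Junb window holds no STAT-type letters, and that of Xbp1 neither form of the ER stress element. The cAMP response element TGACGTCA, in 1.79% of all promoters, was in those of Btg2, Clk4, Foxd3 and Dnajc27. The BANP motif, a palindrome around CGCG bound by the protein of that name, stood in 0.466% of all promoters and in none of the 39. Among 14484 promoters of tested genes, shares were 0.511% for the full heat shock element, 11.8% for paired units and 11.5% for STAT-type letters. They were 0.159% and 0.0759% for the long and short ER stress forms, 2.91% for the cAMP response element and 0.911% for the BANP motif.

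At 1 h, 52 of 18193 tested genes differed between lit and dark WT cells at an edgeR adjusted p below 0.05 (0.286% of those tested). Of these, 32 were higher (0.176%) and 20 were lower (0.11%) in lit cells. With the replicate number as a block, since same-numbered libraries deviated together, the count was 111, 62 higher and 49 lower, and all 52 were among them. With the 6 compared libraries fitted alone, 20 genes were called, 15 of them among the 52. The effect was small for most: 8 of the 52 had an absolute log2 fold change above 1 and 25 were under 0.5. All 52 moved in the same direction in 3 of 3 replicate pairs, and for 45 the lit and dark levels did not overlap. Both counts are favoured by the choice of genes, because the same 6 libraries entered the calls. Agreement of the pairs was not counted over all tested genes. Over all tested genes, lit libraries lay wholly above the dark ones for 4.93% and wholly below for 4.52%. The number called ran from 15 to 41 when 1 library was left out: 19, 41 and 15 without lit replicate 1, 2 and 3, and 28, 20 and 22 without dark replicate 1, 2 and 3. In these 6 fits 12 of the 52 were called throughout, 9 were lost in every one and 31 in 1 to 5 of them, with edgeR adjusted p from 0.0502 to 0.515 where lost. In bulk libraries fewer cells of a type and less RNA per cell cannot be told apart.

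**Figure D1:**
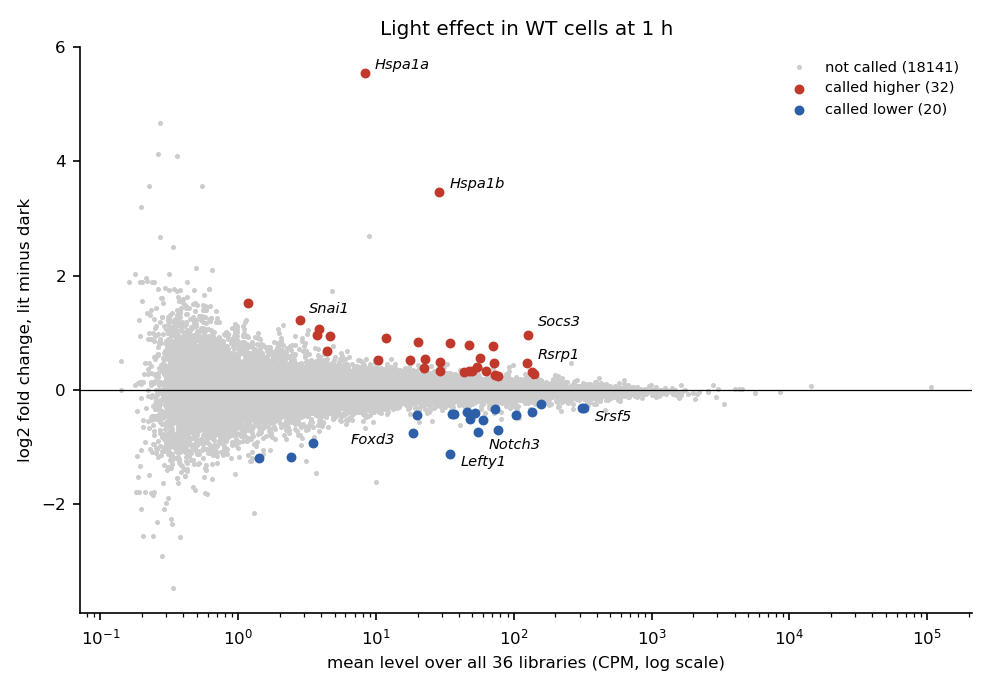
Log2 fold change between lit and dark WT cells at 1 h (vertical axis) against the mean level over all 36 libraries (horizontal axis, CPM, log scale), 1 point per tested gene, with the 32 genes called higher in red, the 20 called lower in blue and the others in grey. Hspa1a and Hspa1b lie far above the other called genes, most of which have small changes at levels of more than 10 CPM.

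Heat shock genes held the largest changes. The level of Hspa1a, an inducible Hsp70 gene with 1 exon (chromosome 17, positions 34969190 to 34972156), was 31.4, 10.3 and 40.3 CPM in lit replicates 1, 2 and 3 and 0.549, 0.716 and 0.455 CPM in the dark ones. The groups were far apart, and lit replicate 2 was the lowest of the lit libraries. The dark values rest on 9, 13 and 9 counts, the lit ones on 463, 183 and 673. In the fit, Hspa1a rose 46.9-fold (log2 fold change 5.55, SE 0.52, edgeR adjusted p = 3.95e-08), and changes below are likewise log2 fold changes ± SE. Its ratio, with 0.5 CPM added, was 4.93 on the log2 scale in batch 1 and 4.57 in batch 2. The sister copy Hspa1b (chromosome 17, positions 34956436 to 34959238) was at 85.4, 39.0 and 94.9 CPM in lit and 10.1, 5.95 and 5.11 CPM in dark replicates, again with lit replicate 2 lowest and no overlap. Hspa1b rose by 3.46 ± 0.40 (edgeR adjusted p = 1.64e-06), or 11-fold. Reads can match both copies, so the split between them is uncertain.

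The cochaperone gene Dnajb1, whose Hsp40 protein hands clients to Hsp70, was at 89.3, 71.4 and 90.6 CPM in lit and 50.4, 47.3 and 50.1 CPM in dark libraries. Every lit library was above every dark one, and Dnajb1 rose by 0.76 ± 0.09 (edgeR adjusted p = 3.72e-06). These 3 were the called genes of 29 measured chaperone and heat shock genes, and none fell. The median log2 fold change of the 29 was 0.0675, with 24 of them positive, beside a median of 0.00102 and 9158 of 18193 positive over all tested genes. Hspa4l, an Hsp110 family gene, came next at 0.56 ± 0.17 and was called with the replicate block (edgeR adjusted p = 0.007).

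**Figure D2:**
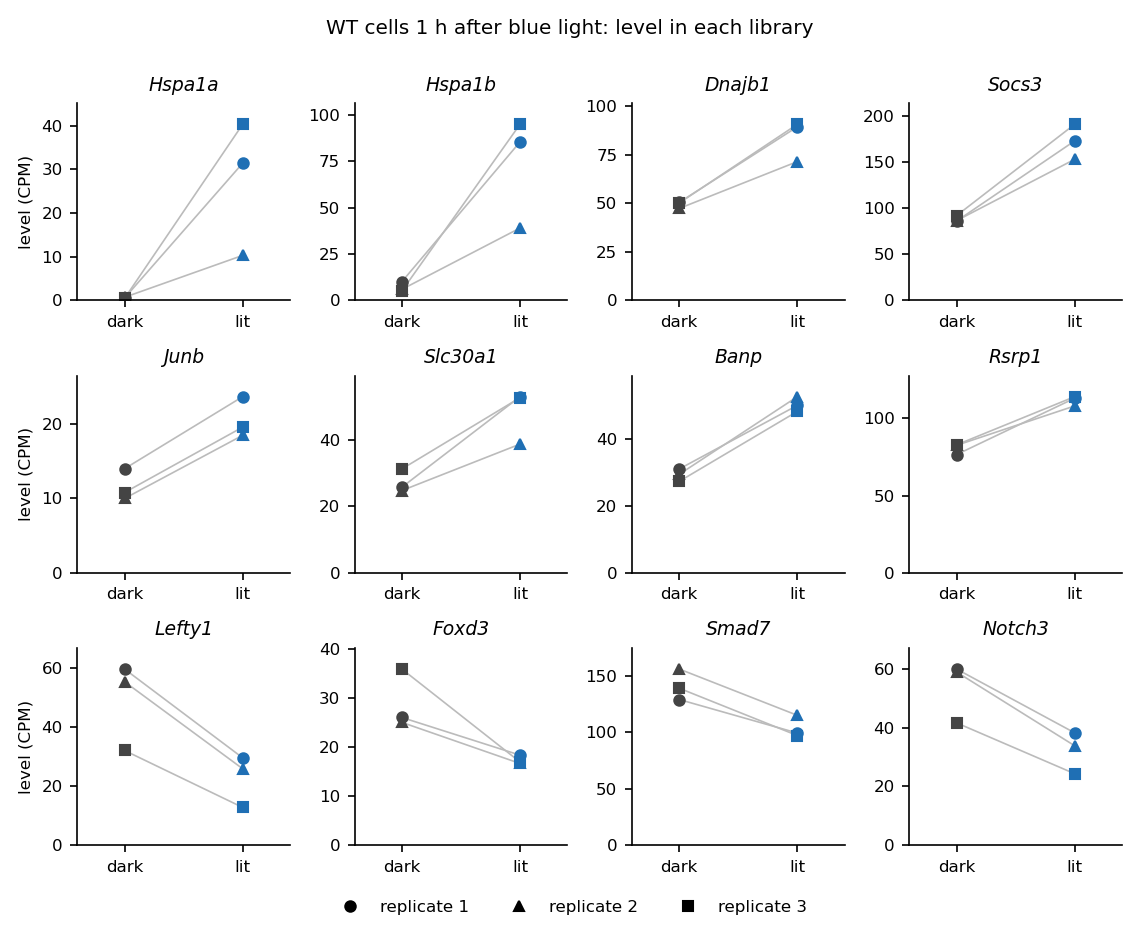
Level in CPM (vertical axis, from 0) of 12 called genes in the 3 dark (grey) and 3 lit (blue) WT libraries at 1 h, with lines joining libraries that carry the same replicate number. Lit levels lie above dark levels in each pair for the first 8 genes and below them for Lefty1, Foxd3, Smad7 and Notch3.

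Genes of LIF and STAT3 signalling were led by Socs3 (chromosome 11, positions 117966079 to 117970047), which encodes the inhibitor of gp130 signalling. Its level was 173, 153 and 191 CPM in lit and 86, 86.5 and 91.9 CPM in dark libraries. The dark libraries lay within a narrow range, with the lowest lit library well above them. The mean rose from 88.1 ± 3.29 to 172 ± 19.1 CPM, a log2 fold change of 0.97 ± 0.10 (edgeR adjusted p = 9.88e-08) or 1.96-fold, with ratios of 1.01 in batch 1 and 0.94 in batch 2 on the log2 scale. Junb, a subunit of the transcription factor AP-1 and a STAT3 target, was at 23.7, 18.5 and 19.6 CPM in lit and 14, 10 and 10.8 CPM in dark libraries, without overlap, and rose by 0.83 ± 0.12 (edgeR adjusted p = 0.000128). It shares exon sequence with Prdx2 on the opposite strand, whose own change was 0.02. Of 27 measured genes of the pathway these 2 rose and none fell, with a median of 0.125 and 22 positive. The related inhibitors Socs4 (0.23 ± 0.05, edgeR adjusted p = 0.0524, and 0.0246 with the replicate block) and Socs5 (0.39 ± 0.11, edgeR adjusted p = 0.178) did not pass. Socs7, a family member outside that list, was at 43.1, 46.4 and 44.8 CPM in lit and 34.1, 39.8 and 34.3 CPM in dark libraries and rose by 0.31 ± 0.07 (edgeR adjusted p = 0.0331). Socs3 and Junb kept their calls whichever of the 6 libraries was left out, and Socs7 was called then only without dark replicate 2 (0.27 to 0.34 elsewhere, edgeR adjusted p 0.0786 to 0.316).

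Of 34 measured immediate early genes, which respond to growth signals and stress within minutes, 2 rose and none fell: Junb and Btg2. The median was 0.0579, and 23 were positive. Btg2, an antiproliferative gene that p53 also drives, was at 27.4, 17.5 and 25.9 CPM in lit and 21.4, 14.8 and 14.6 CPM in dark libraries. These groups overlapped, since dark replicate 1 was above lit replicate 2, although each pair moved upward. Btg2 rose by 0.49 ± 0.10 (edgeR adjusted p = 0.0236). Leaving out lit replicate 1 or 3, or dark replicate 2 or 3, ended the call (0.33 to 0.51, edgeR adjusted p 0.079 to 0.35). The classic early genes Fos (0.47 ± 0.38) and Egr1 (0.20 ± 0.33) did not pass, and neither did Klf6 (0.29 ± 0.10), a zinc finger gene that was called with the replicate block (edgeR adjusted p = 0.0028), or Ctgf (−0.43 ± 0.15), a target of YAP.

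Among 27 measured p53 targets Btg2 was the gene called, with a median of 0.15 and 22 positive. With the replicate block 3 were called, all higher, and the added ones were Ei24, an apoptosis-linked membrane protein gene (0.28 ± 0.07, edgeR adjusted p = 0.0127 with the block), and Mdm2, the p53 ubiquitin ligase (0.23 ± 0.06, edgeR adjusted p = 0.0492 with the block). Trp53inp1 (0.27 ± 0.08) and the cell cycle inhibitor gene Cdkn1a (0.23 ± 0.11) did not pass in either fit. In the NF-kB feedback list 1 of 17 measured genes rose and none fell (median 0.0132). That gene, Icam1, an adhesion molecule for leukocyte integrins, was at 78.1, 71.0 and 86.9 CPM in lit and 57.9, 57.8 and 54.0 CPM in dark libraries, without overlap, and rose by 0.47 ± 0.09 (edgeR adjusted p = 0.0106). The call was lost without lit replicates 1 and 3 and without dark replicates 2 and 3, each left out alone (0.41 to 0.47, edgeR adjusted p 0.0564 to 0.123).

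In the unfolded protein response, 2 of 22 measured genes rose and none fell, with a median of 0.113 and 20 positive. Herpud1 (chromosome 8, positions 94386438 to 94395377), which serves degradation at the endoplasmic reticulum, was at 15.0, 13.8 and 16.1 CPM in lit and 6.83, 10.8 and 6.42 CPM in dark libraries. All lit values were above the highest dark one, replicate 2, and Herpud1 rose by 0.92 ± 0.20 (edgeR adjusted p = 0.0296). Xbp1, a transcription factor of this response, was at 64.2, 48.3 and 50.5 CPM in lit and 48.7, 40.2 and 40.9 CPM in dark libraries, with lit replicate 2 just under dark replicate 1. Xbp1 rose by 0.32 ± 0.06 (edgeR adjusted p = 0.0126). Hspa5, the chaperone BiP of that compartment (0.21 ± 0.08), and Selenos (0.23 ± 0.09) did not pass. Neither call held in most fits with a library left out: Herpud1 was called only without lit replicate 2 or dark replicate 2 (0.71 to 0.95 elsewhere, edgeR adjusted p 0.11 to 0.363), and Xbp1 only without lit replicate 2 (0.29 to 0.34 elsewhere, edgeR adjusted p 0.0575 to 0.153).

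The 20 measured ATF4 targets had the highest median of the 26 lists, 0.17, with 14 positive, but no member was called. Chac1, a glutathione-degrading enzyme gene, was at 4.27, 7.67 and 6.41 CPM in lit and 0.914, 4.02 and 0.91 CPM in dark libraries, with lit replicate 1 and dark replicate 2 close together. Its change of 1.73 ± 0.47 did not pass (edgeR adjusted p = 0.152) and passed with the replicate block (1.78 ± 0.33, edgeR adjusted p = 0.0028). Mthfd2 (0.32 ± 0.11), Trib3 (0.43 ± 0.19) and Atf3 (1.07 ± 0.48) did not pass in either fit.

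Zinc handling was represented by Slc30a1 (chromosome 1, positions 191906767 to 191913247), the exporter at the cell surface. Its level was 53.1, 38.8 and 52.8 CPM in lit and 25.8, 24.8 and 31.3 CPM in dark libraries, with no overlap and the lowest lit value in replicate 2. Slc30a1 rose by 0.81 ± 0.13 (edgeR adjusted p = 0.000539), with ratios of 1.03 in batch 1 and 0.70 in batch 2 on the log2 scale. It overlaps 1700034H15Rik on the opposite strand. Of 22 measured transporters and metallothioneins it was the gene called, with a median of 0.0721 and 14 positive. Slc30a2, a vesicular zinc transporter (0.37 ± 0.10), the metallothionein gene Mt2 (0.32 ± 0.13) and Slc30a9 (−0.17 ± 0.09) did not pass. No gene of 25 in the NRF2 oxidative stress list was called (median −0.0206), and Hmox1, the haem oxygenase gene induced by oxidants, was at −0.02 ± 0.09.

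Genes of splicing kinases and temperature-responsive RNA-binding proteins, 1 list, gave calls in both directions. Of 31 measured, 3 rose and 1 fell, and the median was 0.0103 with 18 positive. Rsrp1, an arginine- and serine-rich protein gene, was at 113, 108 and 114 CPM in lit and 76.5, 82.5 and 82.8 CPM in dark libraries. Both groups were tight and far from overlapping, and Rsrp1 rose by 0.47 ± 0.06 (edgeR adjusted p = 6.84e-06). The kinases that phosphorylate SR proteins rose as well: Clk4 by 0.34 ± 0.08 (edgeR adjusted p = 0.0323) and Clk1 by 0.27 ± 0.06 (edgeR adjusted p = 0.0277). Clk1 was at 169, 172 and 160 CPM in lit and 146, 134 and 135 CPM in dark libraries, and Clk4 at 52.0, 50.6 and 55.9 CPM and 41.3, 38.3 and 45.8 CPM. For both kinases the lowest lit library was above the highest dark one. The splicing factor gene Srsf5 was at 280, 298 and 290 CPM in lit and 354, 372 and 360 CPM in dark libraries, and it fell by 0.32 ± 0.06 on the log2 scale (−0.32; edgeR adjusted p = 0.00366). Luc7l, a U1-associated factor gene, was at 0.19 ± 0.05 (edgeR adjusted p = 0.178, and 0.0464 with the replicate block). Rsrp1 held without every single library. Srsf5 was lost without lit replicate 1 (−0.30, edgeR adjusted p = 0.0625), Clk4 on leaving out lit replicate 1 or 3, or either dark replicate 1 or 2 (0.26 to 0.37, edgeR adjusted p 0.0833 to 0.357), and Clk1 without each library but dark replicate 1 (0.24 to 0.30, edgeR adjusted p 0.061 to 0.23).

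Genes of Nodal, activin and BMP signalling were lower where called: of 35 measured, none rose and 3 fell, with a median of −0.0684 and 25 negative. Lefty1 (chromosome 1, positions 180935022 to 180938400), a secreted inhibitor of Nodal, was at 29.6, 25.9 and 12.8 CPM in lit and 59.7, 55.4 and 32.1 CPM in dark libraries. Replicate 3 was the lowest in each group, and no lit library reached a dark one. The mean was 22.8 ± 8.81 CPM in lit and 49.1 ± 14.9 CPM in dark cells, a log2 fold change of −1.12 ± 0.20 (edgeR adjusted p = 0.00366), with −1.0 in batch 1 and −1.16 in batch 2. The inhibitory SMAD gene Smad7 (chromosome 18, positions 75367529 to 75395935) was at 99.3, 115 and 97.1 CPM in lit and 129, 156 and 139 CPM in dark libraries, a change of −0.45 ± 0.08 (edgeR adjusted p = 0.0027). For both genes every lit library was below every dark one.

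Id2, a BMP target, was at 0.62 ± 0.22 (edgeR adjusted p = 0.406), and the second Nodal inhibitor gene Lefty2, named after its value was seen, at −0.52 ± 0.23 (edgeR adjusted p = 0.592). Calls in this group depended on single libraries. Lefty1 was lost without lit replicate 1 or 3 or dark replicate 2 (−1.05 to −0.84, edgeR adjusted p 0.0662 to 0.0754), and Smad7 without lit replicate 3 or dark replicate 2 (−0.40 to −0.38, edgeR adjusted p 0.0564 to 0.0629).

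In the Notch pathway, whose receptors release a transcriptional coactivator when a neighbouring cell presents a ligand, 1 of 31 measured genes fell and none rose, with a median of 0.0243 and 17 positive. The receptor gene Notch3 (chromosome 17, positions 32120820 to 32166852) was at 38.2, 33.8 and 24.3 CPM in lit and 59.9, 58.9 and 41.6 CPM in dark libraries. As for Lefty1, replicate 3 was lowest in each group and the groups did not overlap. Its change was −0.74 ± 0.13 (edgeR adjusted p = 0.0027), and it was lost without lit replicate 3 or dark replicate 2 (−0.63 to −0.59, edgeR adjusted p 0.0586 to 0.0629). Another receptor gene, Notch4, was at −0.57 ± 0.14 (edgeR adjusted p = 0.108, and 0.0136 with the replicate block). The target gene Hey2 (1.37 ± 0.46) and the DNA-binding mediator gene Rbpj (−0.16 ± 0.07) did not pass.

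Replication-dependent histone mRNAs are made in S phase and end in a stem-loop rather than a poly(A) tail. Poly(A) libraries may thus hold only part of them. These genes had the lowest median of the lists, −0.224, with 22 of 24 negative. Of the 24, 2 fell and none rose. Hist2h2ac, an H2A gene, was at 28.4, 31.8 and 32.0 CPM in lit and 39.1, 44.9 and 48.1 CPM in dark libraries, without overlap, a change of −0.52 ± 0.10 (edgeR adjusted p = 0.0126). The linker histone gene Hist1h1e was at 77.5, 104 and 80.7 CPM in lit and 102, 121 and 121 CPM in dark libraries, where lit replicate 2 lay just above dark replicate 1, a change of −0.39 ± 0.09 (edgeR adjusted p = 0.0308). Its exon overlaps Hist1h2be, an H2B gene, on the same strand. Hist1h1b (−0.37 ± 0.09, edgeR adjusted p = 0.0991, and 0.0238 with the replicate block) and Hist1h1d (−0.33 ± 0.09, edgeR adjusted p = 0.145) are other linker histone genes. Hist2h2ac was called only without lit replicate 2 or dark replicate 1 (−0.54 to −0.45 elsewhere, edgeR adjusted p 0.0547 to 0.132) and Hist1h1e only without lit replicate 2 (−0.40 to −0.30 elsewhere, edgeR adjusted p 0.0761 to 0.312).

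Cell cycle and energy genes were not called one by one. All 24 measured G2/M genes had a negative log2 fold change, with a median of −0.103, beside 9035 of 18193 negative genes overall. Kif23, a kinesin of cytokinesis, was at −0.24 ± 0.07 (edgeR adjusted p = 0.192, and 0.0289 with the replicate block), the mitotic kinase gene Plk1 at −0.18 ± 0.06, Ube2c at −0.15 ± 0.05 and the cyclin gene Ccnb1 at −0.14 ± 0.06. Of 26 genes of G1/S and replication, 14 were positive and the median was 0.00215. Hypoxia and glycolysis genes were negative in 25 of 28 cases, with a median of −0.139. Among these Pdk1, the kinase that restrains pyruvate dehydrogenase (−0.23 ± 0.06, edgeR adjusted p = 0.0723), and Pfkl, a phosphofructokinase gene (−0.28 ± 0.11, edgeR adjusted p = 0.474), were called with the replicate block (edgeR adjusted p = 0.0197 and 0.0342), while Ndrg1 (−0.36 ± 0.15) and Ldha (−0.17 ± 0.07) were not.

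Pluripotency genes stayed close to their dark levels, with 1 of 28 measured naive genes higher and 1 lower, and a median of −0.0363. Pou5f1 (0.03 ± 0.10), Nanog (−0.14 ± 0.10), Sox2 (−0.07 ± 0.07), Klf4 (−0.03 ± 0.09) and Esrrb (−0.08 ± 0.06), core factors of this state, did not pass. Zfp296, a zinc finger gene of pluripotent cells, was at 41.0, 51.2 and 51.7 CPM in lit and 31.9, 32.2 and 33.9 CPM in dark libraries, without overlap, and rose by 0.55 ± 0.09 (edgeR adjusted p = 0.00214). It overlaps Gemin7 on the opposite strand, whose change was −0.20. The forkhead gene Foxd3 was at 18.4, 16.7 and 17.0 CPM in lit and 26.1, 25.1 and 36 CPM in dark libraries, where dark replicate 3 stood above the other two. Foxd3 changed by −0.76 ± 0.16 (edgeR adjusted p = 0.0247), and it was also the called gene of 21 formative and primed genes (median −0.0427). Zfp296 held without each library, whereas Foxd3 was called only without dark replicate 1 (−0.82 to −0.50 elsewhere, edgeR adjusted p 0.0564 to 0.404). Tet2 (−0.25 ± 0.08), Tdgf1 (−0.16 ± 0.08), Zic2 (−0.26 ± 0.11) and the reference genes Actb (0.01 ± 0.06) and Gapdh (−0.08 ± 0.06) did not pass.

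**Figure D3:**
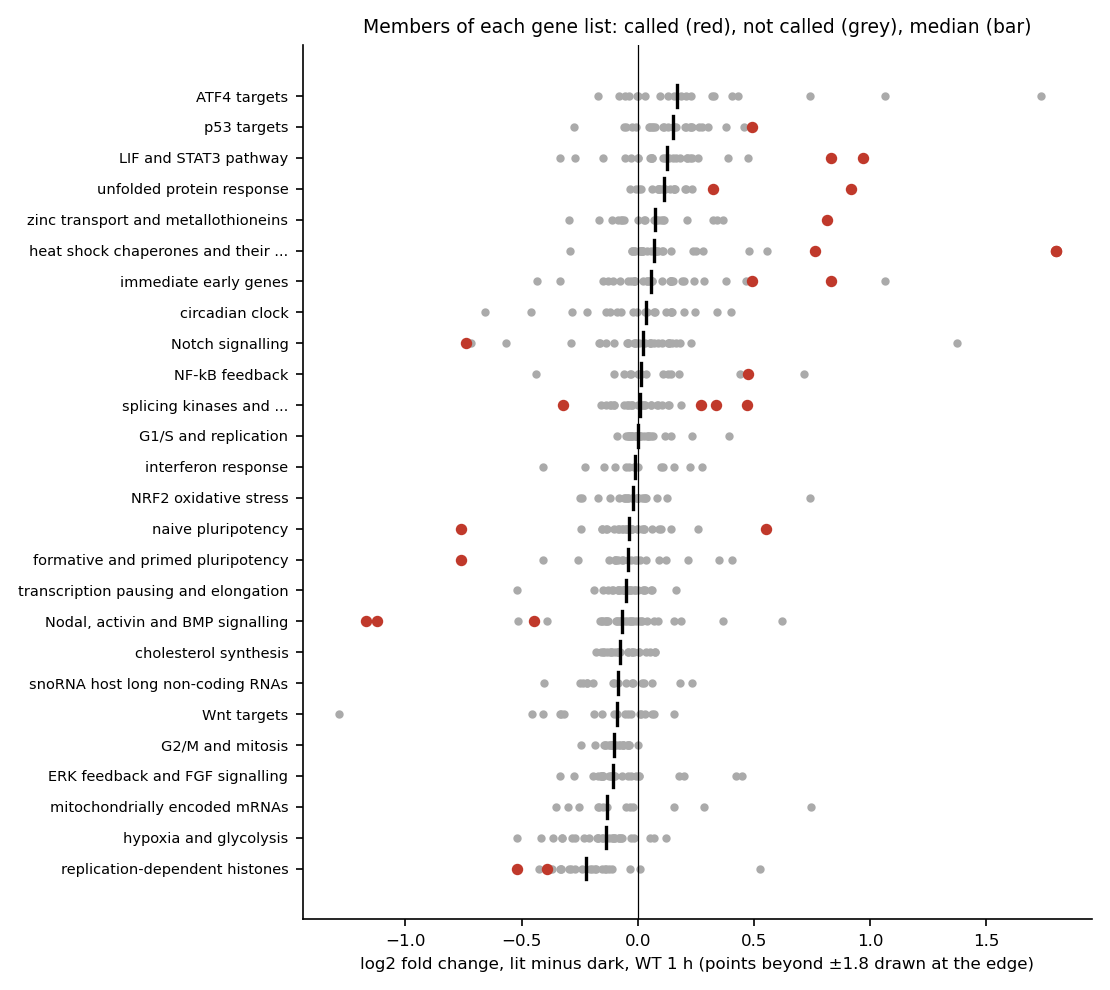
Log2 fold change between lit and dark WT cells at 1 h (horizontal axis) of each measured member of 26 gene lists (1 row per list, ordered by median), with called genes in red, the others in grey and the list's median as a bar. Hspa1a and Hspa1b are drawn at the right edge. The medians run from −0.224 for replication-dependent histones to 0.17 for ATF4 targets.

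In another 8 lists no gene was called, with or without the block. Their medians were −0.109 for 24 genes of ERK feedback and FGF signalling, −0.0781 for 24 cholesterol synthesis genes, −0.089 for 19 Wnt targets, −0.133 for 13 mitochondrially encoded mRNAs, −0.0498 for 29 genes of transcription pausing and elongation, −0.0857 for 17 long non-coding hosts of small nucleolar RNAs, 0.0349 for 22 clock genes and −0.0123 for 14 interferon response genes. Positive members numbered 6 of 24, 6 of 24, 6 of 19, 3 of 13, 6 of 29, 5 of 17, 12 of 22 and 6 of 14 in that order. The mitochondrial mRNAs mt-Nd1 and mt-Cytb were lower mainly in replicate pair 1. Their log2 ratios in pairs 1, 2 and 3 were −0.67, −0.02 and −0.1, and −0.51, 0.06 and 0.03. Those of mt-Atp6 and mt-Nd3, at means of 6.4 and 0.601 CPM over all 36 libraries, were −0.34, −0.35 and −0.29, and 0.62, −0.16 and 0.71. Among host RNAs, Snhg5 was at −0.24 ± 0.08, Snhg4 at −0.22 ± 0.10, Snhg12 at −0.22 ± 0.11, Dancr at −0.25 ± 0.13 and Gas5 at −0.09 ± 0.06. At 0 h, 9 of these 17 had fallen, with a median of −0.613.

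Outside the lists, Banp (chromosome 8, positions 121949750 to 122029258) gave one of the best separated changes. Its protein binds unmethylated CG-rich promoters. Its level was 50, 52.6 and 48.2 CPM in lit and 31.0, 29.4 and 27.3 CPM in dark libraries, with a wide gap between the groups. Banp rose by 0.78 ± 0.08 (edgeR adjusted p = 4.79e-08), or 1.72-fold, with 0.68 in batch 1 and 0.82 in batch 2 on the log2 scale. Nemp1, an inner nuclear membrane protein gene, was at 50.6, 49.0 and 52.9 CPM in lit and 37.4, 39.6 and 38.8 CPM in dark libraries and rose by 0.40 ± 0.07 (edgeR adjusted p = 0.00152). Both were called without each library in turn, and Nemp1 was lost with batch 2 alone (edgeR adjusted p = 0.188) and with the compared groups alone (edgeR adjusted p = 0.0698). Banp overlaps Gm27011 and Nemp1 overlaps Nab2 on the opposite strand.

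The other higher genes outside the lists had varied roles. Snai1, the repressor of epithelial genes, was at 2.58, 3.59 and 3.83 CPM in lit and 1.10, 1.38 and 1.77 CPM in dark libraries, without overlap, and rose by 1.23 ± 0.25 (edgeR adjusted p = 0.0175), though it was lost without any 1 of the 6 libraries (1.13 to 1.35, edgeR adjusted p 0.0502 to 0.13). Csrnp2, a nuclear protein gene, rose by 0.54 ± 0.10 (edgeR adjusted p = 0.00739), Dedd2, a death effector domain gene, by 0.53 ± 0.12, the zinc finger gene Zfp623 by 0.53 ± 0.12 and Gtf2ird1, of the TFII-I family, by 0.25 ± 0.05. The Argonaute gene Ago3 rose by 0.34 ± 0.07, with lit libraries at 54.4, 58.3 and 51.0 CPM and dark ones at 43.9, 43.5 and 42.3 CPM. Genes of centrioles and cilia, Ttbk2 (0.39 ± 0.09) and Ccp110 (0.27 ± 0.06), rose, as did Cdr2 (0.32 ± 0.07), the ephrin receptor gene Epha4 (0.31 ± 0.07) and Hs3st3b1, a heparan sulfate sulfotransferase gene (0.68 ± 0.16). Of these Csrnp2 was lost in 3 leave-one-out fits, Ago3 in 4, Ttbk2, Epha4 and Hs3st3b1 in 5, and Dedd2, Zfp623, Gtf2ird1, Ccp110 and Cdr2 in 6, with the same sign in each. The other 4 higher genes have no established symbol. One of them, Gm25848, is a small nucleolar RNA at 4.21, 1.34 and 1.74 CPM in lit and 0.671, 0.771 and 0.86 CPM in dark libraries, where lit replicate 1 stood far above the rest (1.53 ± 0.36, edgeR adjusted p = 0.0493). RNAs of this kind may be captured only in part in poly(A) libraries. Gm25848 was lost in 5 leave-one-out fits (1.17 to 1.74, edgeR adjusted p 0.108 to 0.515) and with batch 2 alone (0.90), Gm30363 in 4 and Gm43890 and Gm45809 in 6.

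The lower genes outside the lists had varied roles as well. The matrix proteoglycan gene Agrn was at 264, 239 and 223 CPM in lit and 327, 294 and 286 CPM in dark libraries, without overlap, a change of −0.32 ± 0.07 (edgeR adjusted p = 0.0301). Chst15, a chondroitin sulfate sulfotransferase gene, was at 5.16, 2.97 and 2.99 CPM in lit and 8.11, 5.45 and 7.23 CPM in dark libraries, a change of −0.94 ± 0.19 (edgeR adjusted p = 0.0126). Lgr4, a receptor gene for R-spondins, changed by −0.25 ± 0.06. The others were Camk2g, a calmodulin-dependent kinase (−0.42 ± 0.07, edgeR adjusted p = 0.00214), the ubiquitin ligase Rnf165 (−0.43 ± 0.08), Dnajc27 (−0.43 ± 0.08), Mnt, a repressor that pairs with MAX (−0.33 ± 0.07), Zfp827 (−0.41 ± 0.09) and Ubald1 (−0.39 ± 0.08). Camk2g was called without each library in turn but not with no batch term, with batch 2 alone or with the compared groups alone (edgeR adjusted p = 0.0701, 0.285 and 0.0953 in that order). Agrn was lost in 6 leave-one-out fits and the others named here in 4. AC160637.1, a transcript inside Pkm on the same strand, fell by 0.71 ± 0.09 on the log2 scale (−0.71; edgeR adjusted p = 3.72e-06), and was also called without each library, though not with no batch term (edgeR adjusted p = 0.0615), while Pkm itself was at −0.15 ± 0.07 (edgeR adjusted p = 0.587).

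Gene structure was described for the called genes beside all tested genes. Of the 32 higher genes 28 were protein-coding, with a median genomic span of 13355.5 bases, and of the 20 lower ones 18 were, with a median of 28215.5 bases. The median of all 13725 tested protein-coding genes was 24423 bases. Genes with 1 exon in the longest transcript made up 14.29% of the 28, 22.22% of the 18 and 6.06% of the 13725.

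The light effect at 1 h was then compared with that straight after the light period. At 0 h, 520 genes were called in WT cells (2.86%), 302 higher (1.66%) and 218 lower (1.2%). There were 19 genes called at both times, 36.5% of the 1 h list and 3.65% of the 0 h list, and all had the same direction: 11 higher and 8 lower. The genes higher at both included Hspa1a, Hspa1b, Dnajb1, Snai1, Junb, Slc30a1, Banp, Zfp296, Clk4 and Cdr2. Those lower at both included Lefty1, Smad7, Notch3, Agrn, Dnajc27, Hist1h1e and Hist2h2ac. Of the 33 genes called at 1 h and not at 0 h, 25 had the same sign at 0 h. The share of all tested genes with equal signs at both times was not counted. The genes higher at 0 h had a median of 0.593 then and 0.0502 at 1 h, and those lower at 0 h went from −0.618 to −0.106. The choice of these genes at 0 h favours larger medians at that time.

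A test of the difference between the effects at 1 h and at 0 h called 94 genes (0.517%), 47 in each direction. Of these, 79 were called at 0 h and not at 1 h, 5 at 1 h and not at 0 h, 1 at both and 9 at neither. The long non-coding RNAs Gas5 (difference 0.87 ± 0.09, edgeR adjusted p = 3.75e-07), Snhg4 (1.18 ± 0.14, edgeR adjusted p = 3.51e-06) and Dancr (1.44 ± 0.20, edgeR adjusted p = 0.000101) were among the 79. Gas5 averaged 129 CPM in lit and 249 CPM in dark cells at 0 h, and 248 and 263 CPM at 1 h. The 6 genes called at 1 h and in this test were Rsrp1 (0.50 ± 0.08, edgeR adjusted p = 0.00133), Socs3 (0.72 ± 0.14, edgeR adjusted p = 0.00647), Xbp1 (0.43 ± 0.09, edgeR adjusted p = 0.0177), Chst15 (−1.22 ± 0.27, edgeR adjusted p = 0.0214), Btg2 (0.63 ± 0.15, edgeR adjusted p = 0.0331) and Banp (0.45 ± 0.11, edgeR adjusted p = 0.0422). At 0 h the light effect of Socs3 had been 0.24 (edgeR adjusted p = 0.213), that of Rsrp1 −0.03, of Xbp1 −0.10, of Btg2 −0.14 and of Chst15 0.28. The kinase gene Clk4 was at 0.49 at 0 h and 0.34 at 1 h, and Clk1 at 0.07 and 0.27 (difference 0.20 ± 0.08, edgeR adjusted p = 0.445), and neither difference passed.

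**Figure D4:**
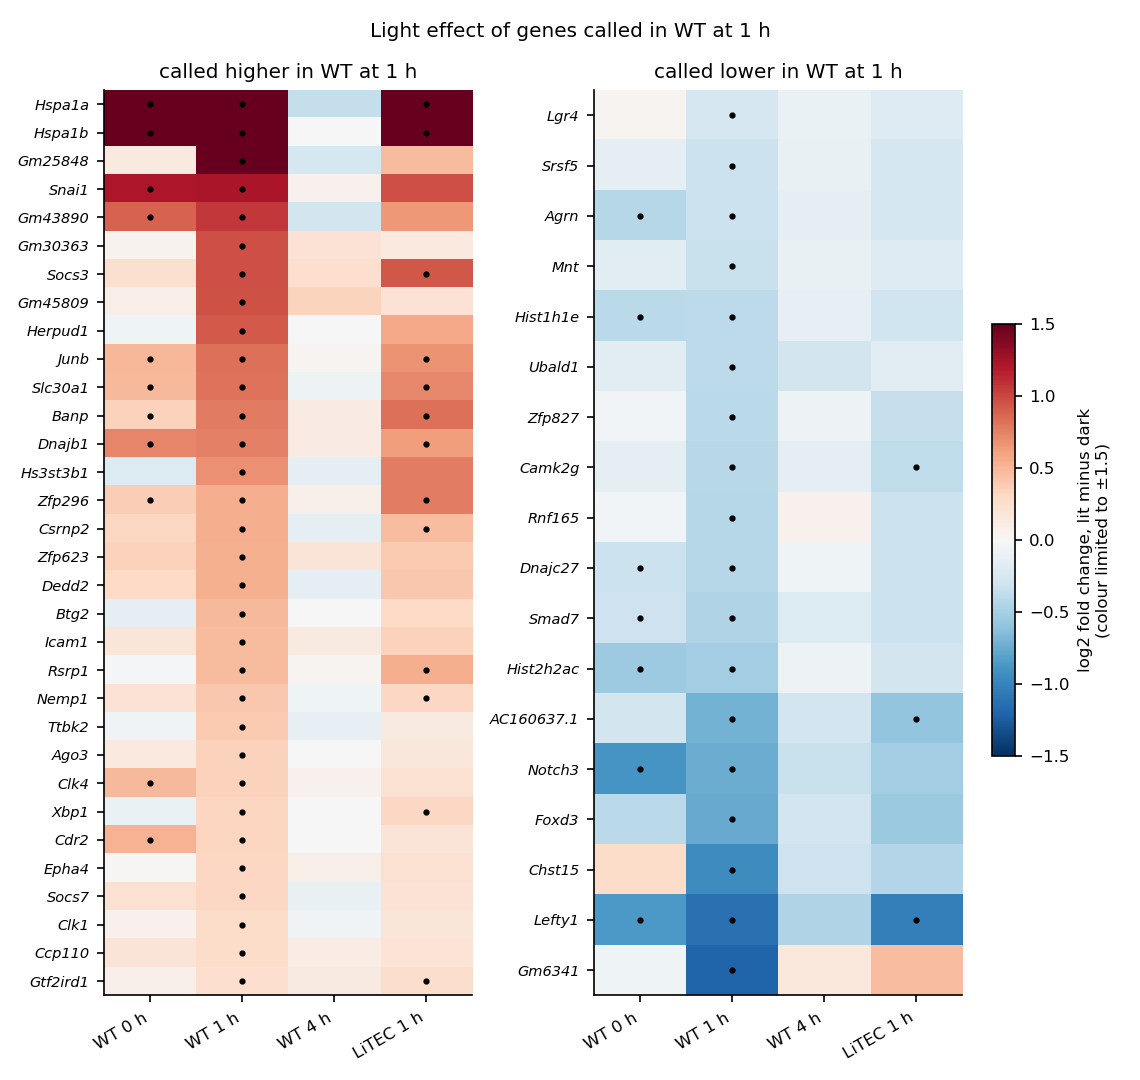
Log2 fold change between lit and dark cells (colour, limited at both ends) of the 32 genes called higher (left) and 18 of the 20 called lower (right) in WT cells at 1 h, in 4 comparisons (columns), with dots where a gene was called. The column for WT at 4 h is pale and has no dots. By the choice of genes the column for WT at 1 h has a dot in every row, so no other column can have more.

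One of the 3 dark WT libraries at 4 h, replicate 3, stood apart: Gm26917 took 26.12% of its counts, against 8.122% to 16.27% in the other 35 libraries of the series. At 4 h edgeR called 0 genes in WT cells (0%), although 1484 had an unadjusted p below 0.05. The smallest adjusted p was 0.0545, and no other tool was run for that time. Without that dark library edgeR again called 0 genes, where the lowest adjusted p was 0.344 and 993 genes were under 0.05 before adjustment. The 32 higher genes had a median of 0.536 at 1 h and 0.0129 at 4 h, and the 20 lower genes −0.442 and −0.133 (0.0196 and −0.114 at 4 h without that library). The choice of these genes by their effect at 1 h favours larger medians at that time. A sign equal to that at 1 h was seen for 37 of the 52, and this agreement was not counted over all tested genes. The test of the difference between 1 h and 4 h called 9 genes (0.0495%), all with the more positive effect at 1 h: Hspa1a (5.91 ± 0.90, edgeR adjusted p = 0.00234), Hspa1b (3.46 ± 0.55), Banp (0.66 ± 0.11), Socs3 (0.72 ± 0.14, edgeR adjusted p = 0.0341), Rsrp1 (0.43 ± 0.08), Socs4 (0.40 ± 0.08), Nemp1 (0.46 ± 0.09), Slc30a1 (0.90 ± 0.18) and Dnajb1 (0.64 ± 0.13, edgeR adjusted p = 0.0423). With Gm26917 and Gm42418, the ribosomal RNA loci, taken out of the table the count was 4. Without dark replicate 3 at 4 h the difference passed for 3 genes, Hspa1a (5.66 ± 1.04), Hspa1b (3.58 ± 0.57) and Banp (0.67 ± 0.11), while the other 6 had an edgeR adjusted p of 0.0725 to 0.238, and Slc30a1 was at 0.73 ± 0.18. The same fit called 69 genes for the light effect at 1 h, all 52 among them. Lefty1 (−0.45 at 4 h, −1.12 at 1 h) did not pass in this test.

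Levels in the separate groups took different courses. For the Hsp70 genes the lit level moved most. Hspa1b averaged 114 ± 42.2, 73.1 ± 29.9 and 18.2 ± 15.4 CPM in lit cells at 0, 1 and 4 h. In dark cells it averaged 7.74 ± 0.943, 7.04 ± 2.65 and 18.2 ± 16.7 CPM, so both means at 4 h were widely spread. The Hspa1b means in LiTEC cells at these times were 22.3, 35.9 and 16 CPM in lit and 6.92, 6.84 and 16.5 CPM in dark libraries. For several other genes the dark level was low at 1 h. Rsrp1 averaged 99.6, 112 and 155 CPM in lit cells at 0, 1 and 4 h and 102, 80.6 and 151 CPM in dark cells. Banp was at 46.5, 50.3 and 52.2 CPM in lit and 36.9, 29.3 and 48.0 CPM in dark cells. Zfp296 was low at 1 h in lit and dark cells alike, at 69.8, 48.0 and 73.7 CPM in lit and 53.9, 32.7 and 69.7 CPM in dark cells. Socs3 was high in lit and low in dark cells at 1 h, with 131, 172 and 163 CPM in lit and 111, 88.1 and 137 CPM in dark cells.

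Of the 32 higher genes, 26 had their lowest WT dark mean at 1 h (81.2%), against 30.2% of all tested genes, a share that the choice of genes favours because the same dark libraries entered the comparison. In the dark LiTEC libraries, which that comparison did not use, 22 of the 32 (68.8%) were lowest at 1 h, against 31.3% of all tested genes. The dark LiTEC means at 0, 1 and 4 h were 42.5, 33.9 and 58.9 CPM for Banp, 123, 87.2 and 170 CPM for Rsrp1 and 104, 80.6 and 119 CPM for Socs3. Of the 20 lower genes, 15 (75%) had their lowest lit LiTEC mean at 1 h, against 34.2% of all tested genes. In dark LiTEC libraries 8 of these 20 were lowest at 1 h (40%, against 31.3% of all tested genes) and 5 highest (25%, against 36%). Lefty1 averaged 21.3, 22.8 and 39.4 CPM in lit WT cells and 38.0, 49.1 and 53.5 CPM in dark ones. The time of collection and the time after light cannot be told apart within lit or dark libraries alone.

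**Figure D5:**
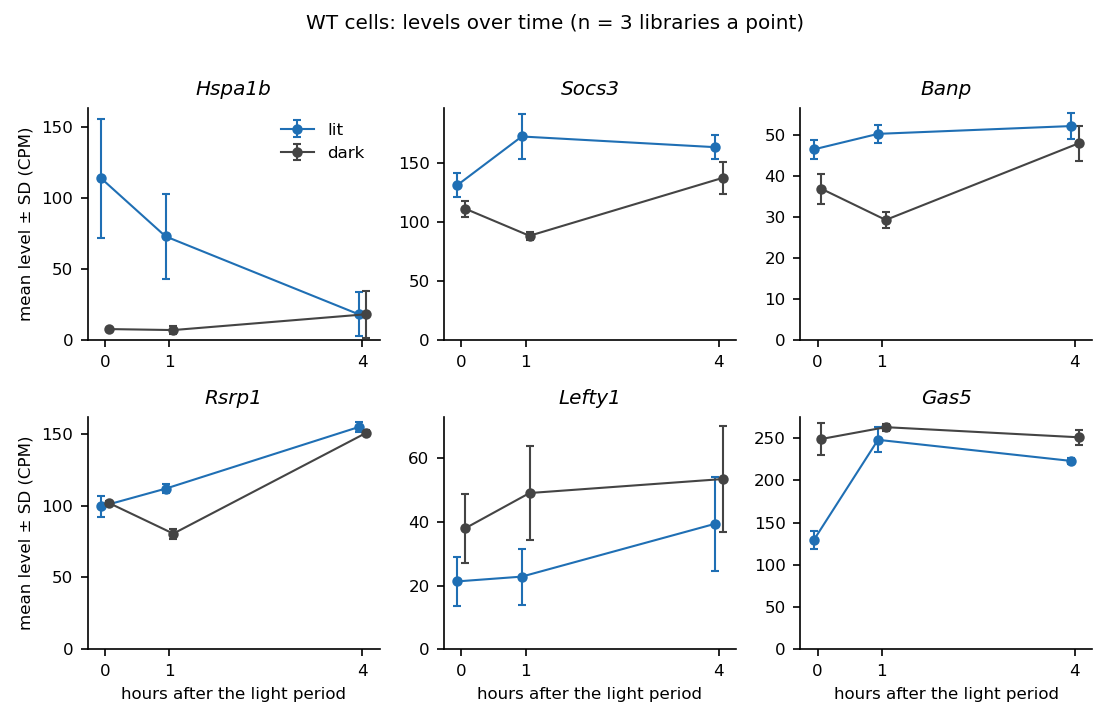
Mean level ± SD (vertical axis, CPM from 0; n = 3 libraries a point) of 6 genes in lit (blue) and dark (grey) WT cells at 0, 1 and 4 h after the light period (horizontal axis, hours). Hspa1b declines in lit cells, Socs3, Banp and Rsrp1 dip in dark cells at 1 h, and Gas5 is low in lit cells at 0 h, at 129 CPM.

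In LiTEC cells at 1 h, 21 genes were called (0.115%), 15 higher (0.0824%) and 6 lower (0.033%), and 17 of them were called in WT, which is 81% of the LiTEC list and 32.7% of the WT list. Of the 52 WT genes 51 had the same sign in LiTEC cells, the exception being the pseudogene Gm6341. Agreement in sign between WT and LiTEC cells was not counted over all tested genes. The 32 higher genes had a median of 0.392 there and the 20 lower genes −0.321, and no library was shared. Their choice in WT cells favours larger effects in WT. Side by side, the LiTEC and WT effects were 0.93 and 0.97 for Socs3, 0.83 and 0.78 for Banp, 0.55 and 0.47 for Rsrp1, −1.03 and −1.12 for Lefty1, 3.73 and 5.55 for Hspa1a, 2.46 and 3.46 for Hspa1b, and 0.57 and 0.92 for Herpud1. The test of the difference called 0 genes with edgeR (0%; 378 at an unadjusted p below 0.05), 0 with DESeq2 (284 at an unadjusted p below 0.05) and 4 with edgeR when no expression filter was used. For Hspa1a the difference was −1.82 ± 0.95 and for Socs3 −0.04 ± 0.14.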

How the data were processed

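RNA was measured in 36 libraries, 12 groups of 3, and the 6 from WT cells at 1 h are compared here. The deposited table gives raw counts per gene (whole numbers). The tools named are FastQC and featureCounts, and the build is mm10 (GRCm38), per the submitters' processing notes. Not given in the sources used here are the aligner, the strand setting and the handling of reads with several matches, so genes that overlap or have near-identical copies are uncertain. All 36 libraries were fitted with edgeR 4.0.16 (R 4.3.3, limma 3.58.1), glmQLFit and glmQLFTest, with a mean per group and a batch term (23 residual degrees of freedom), after filterByExpr (minimum count 10; 18193 of 54842 genes) and TMM scaling. Calls were made at a Benjamini-Hochberg adjusted p below 0.05, with adjustment over every tested gene. A standard error is the fold change's size over the square root of F. A check on simulated data recovered known changes. These were larger than most changes called here and were drawn without batch or replicate effects, so recovery of smaller changes was not tested.

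Same-numbered lit and dark libraries deviated together from their group means (r = 0.645, 0.529 and 0.502 over 14472 genes, against −0.453 to 0.0331 for unlike numbers), so the replicate number was also used as a block. No 2 libraries agreed within sampling noise (chi-square per gene 4.114 to 21.04).

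The samples, gene lists and tests were chosen with earlier results of these data known. Named are the called genes (2 are counted but not reported here), the 4 members of each described list with the smallest p, up to 12 genes of each difference, and 11 fixed genes: Actb, Gapdh, Pou5f1, Sox2, Nanog, Esrrb, Klf4, Egr1, Fos, Cdkn1a and Hmox1. Luc7l and Lefty2, and genes that overlap a named gene, were added after their values were seen. Lists are described by counts and medians without a test. Gene positions are from GENCODE M21 (GRCm38), which matched 18184 tested genes. Alternatives were the replicate block, no batch term, DESeq2 1.42.0, RLE size factors, batch 2 alone, no filter, no ribosomal RNA loci, the compared groups alone and leaving out each library, with 1 dark library at 4 h left out of the other fits after seeing the data.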

Additional observations from a re-analysis of the deposited data

Results flagged for a closer look

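These results concern a light effect at 1 h that differed from the effect at another time by a test of the difference itself. Between 1 h and 0 h, 94 genes differed. The difference (log2, 1 h minus 0 h) was 2.53 ± 0.22 for Lrrc75aos2, an antisense RNA whose reads cannot be told from those of Lrrc75a without strand (edgeR adjusted p = 3.88e-09), 0.87 for Gas5, 1.18 for Snhg4, 1.44 for Dancr, 0.68 ± 0.10 for Snhg1 (edgeR adjusted p = 0.0003) and 1.51 ± 0.24 for Snord43, a small nucleolar RNA gene (edgeR adjusted p = 0.000685). Small nucleolar RNAs may be captured only in part in poly(A) libraries. Among genes called at 1 h the difference was 0.50 for Rsrp1, 0.72 for Socs3, 0.43 for Xbp1, −1.22 for Chst15, 0.63 for Btg2 and 0.45 for Banp. Between 1 h and 4 h, 9 genes differed: Hspa1a by 5.91, Hspa1b by 3.46, Banp by 0.66, Socs3 by 0.72, Rsrp1 by 0.43, Socs4 by 0.40, Nemp1 by 0.46, Slc30a1 by 0.90 and Dnajb1 by 0.64. Without dark replicate 3 of WT cells at 4 h, whose ribosomal RNA share stood apart, the difference from 4 h passed for Hspa1a, Hspa1b and Banp.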

How the results depend on the processing

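Counts are given for the light effect at 1 h (52), its difference from 0 h (94), its difference from 4 h (9) and the LiTEC minus WT difference at 1 h (0). The replicate block gave 111, 157, 19 and 0, and for the effect at 1 h it changed no other call of a named gene than those stated beside the results. A fit that drops the batch term gave 15, 55, 2 and 0, and batch 2 by itself 11, 14, 0 and 0 (902 genes at an unadjusted p below 0.05 by edgeR for the 4 h difference). Fitting the compared groups alone gave 20, 56, 0 and 0 (843 at an unadjusted p below 0.05 by edgeR for the 4 h difference). Of the 20 genes, 15 were among the 52. No expression filter gave 104, 162, 48 and 4, DESeq2 gave 78, 130, 18 and 0, RLE size factors 49, 96, 9 and 0, and leaving out the ribosomal RNA loci 50, 94, 4 and 0. With 1 compared library left out, counts ran from 15 to 41, from 45 to 83, from 3 to 9 and at 0. Leaving dark replicate 3 of WT at 4 h out of the fit, chosen after seeing the data, gave 69 for the effect at 1 h and 0 at 4 h. The cause of these shifts was not tested. Of the 52 genes 8 were called under all 14 alternatives: Banp, Dnajb1, Hspa1a, Hspa1b, Junb, Rsrp1, Socs3 and Zfp296. The log2 fold changes of the 52 reversed in none of them. Genes of few counts, such as Hspa1a in dark cells, are limited by depth.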
